A study of Mus musculus with 4 samples.

Results

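The nuclei described here are neurons from PVN tissue punches that carried RNA of Crh, which encodes corticotropin-releasing hormone, or of Trh, which encodes thyrotropin-releasing hormone. They were picked from single-nucleus RNA-seq of the paraventricular nucleus (PVN) of the mouse by their own peptide counts. A nucleus had to pass a neuron gate (at least 2000 UMIs, 500 genes and 5 of 7 neuronal genes, at most 5% mitochondrial UMIs), hold at least 2 UMIs of Crh or of Trh, and hold fewer than 10 UMIs of Oxt and Avp together. A UMI (unique molecular identifier) tags 1 captured RNA molecule. Of 31109 barcodes in 4 libraries, 15033 passed the neuron gate, 75 of these were set aside for Oxt and Avp, and 194 met the rule: 97 Crh nuclei and 97 Trh nuclei. None met both thresholds. The markers place the sets differently: Sim1, a factor of PVN neurons, was detected in 73 of the Trh nuclei but in 10 of the Crh nuclei, of which 24 held at least 10 UMIs of the thalamic marker Tcf7l2, so the Crh nuclei are named by their peptide RNA alone. Of the 75 set aside, 2 also held Crh or Trh at the threshold.

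The animals were male C57Bl6 mice, given as 10 weeks old in one label and as up to 12 weeks in another, with no genetic change or drug named. All libraries came from micropunched tissue, 5 PVNs pooled, taken 8 hours (ZT8) or 20 hours (ZT20) after lights on, with 2 libraries at each time. It is not given in the sources used here whether replicate libraries hold different animals, so p-values measure the spread between libraries, which may be partly technical. The pooled tissue also means that no value can be traced to 1 mouse.

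Crh neurons of the PVN release their peptide into the portal blood, where it drives ACTH secretion from the pituitary and so the release of glucocorticoids. Trh neurons of the PVN drive thyrotropin secretion and set the thyroid axis. The PVN neurons of both kinds are known to depend on the transcription factors Sim1 and Otp and to use glutamate, loaded into vesicles by the product of Slc17a6. Gad2 encodes a GABA-synthesizing enzyme. Tcf7l2 is a transcription factor of the Wnt pathway with high levels in thalamic neurons, and it is also used by oligodendrocytes. Both peptide genes are expressed by other, GABA-using neurons elsewhere in the forebrain as well.

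The libraries held 57970649 to 69223344 UMIs. Library pairs shared 10 to 25 barcodes, and none of the shared barcodes was a Crh or Trh nucleus. The ZT8 and ZT20 libraries differed in the RNA detected in their neurons. Sim1 was detected in 2.02% and 1.91% of neurons at ZT8 and in 9.71% and 9.56% at ZT20. More GABA than glutamate UMIs were held by 24.3% and 23.1% of neurons at ZT8 and 36.4% and 38.1% at ZT20. The neurons set aside for Oxt and Avp were 1 and 4 at ZT8 against 37 and 33 at ZT20. With 2 libraries at each time, tissue sampling and time cannot be told apart in any of these shares. As a reference for RNA that floats free in the suspension, 558 oligodendrocytes were used, which should make none of these peptides.

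Crh nuclei were rare at both times. There were 15 and 28 at ZT8 and 25 and 29 at ZT20. They made up 0.445% (exact 95% interval 0.249 to 0.734%) and 0.733% (0.488 to 1.06%) of neurons at ZT8, and 0.637% (0.413 to 0.940%) and 0.753% (0.505 to 1.08%) at ZT20. The means were 0.589% ± 0.204 at ZT8 and 0.695% ± 0.0819 at ZT20 (SD, n = 2 libraries), the ranges overlapped, and the exact permutation test gave p = 0.667. With 2 against 2 libraries that two-sided test cannot give less than 0.333. Intervals cover counting error only. By transmitter (denominators chosen after the data were seen) the share went both ways, each with no overlap and an exact p of 0.333. Among neurons with more GABA than glutamate UMIs it was 1.34% and 2.04% at ZT8 and 0.912% and 0.955% at ZT20. Among those with more glutamate UMIs it was 0.181% and 0.279% at ZT8 and 0.436% and 0.660% at ZT20.

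Trh nuclei were more frequent in both ZT20 libraries than in either ZT8 library. There were 4 and 9 at ZT8 and 40 and 44 at ZT20. The shares were 0.119% (0.0324 to 0.304%) and 0.236% (0.108 to 0.447%) of neurons at ZT8, against 1.02% (0.730 to 1.39%) and 1.14% (0.832 to 1.53%) at ZT20. The groups did not overlap, and the exact permutation p was 0.333, the smallest this design allows. The share moved together with that of Sim1-detected neurons. Among those neurons alone (a denominator chosen after the data were seen), Trh nuclei made up 2.94% (0.358 to 10.2%) and 8.22% (3.08 to 17%) at ZT8 and 8.14% (5.60 to 11.4%) and 9.24% (6.48 to 12.7%) at ZT20, with p = 0.667 in the same exact test. There the ranges overlapped. Among neurons with no Sim1 UMI the share was again higher at ZT20, 0.0606% and 0.0801% at ZT8 against 0.254% and 0.287%, from 2, 3, 9 and 10 nuclei, with no overlap (exact p = 0.333).

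**Figure D1:**
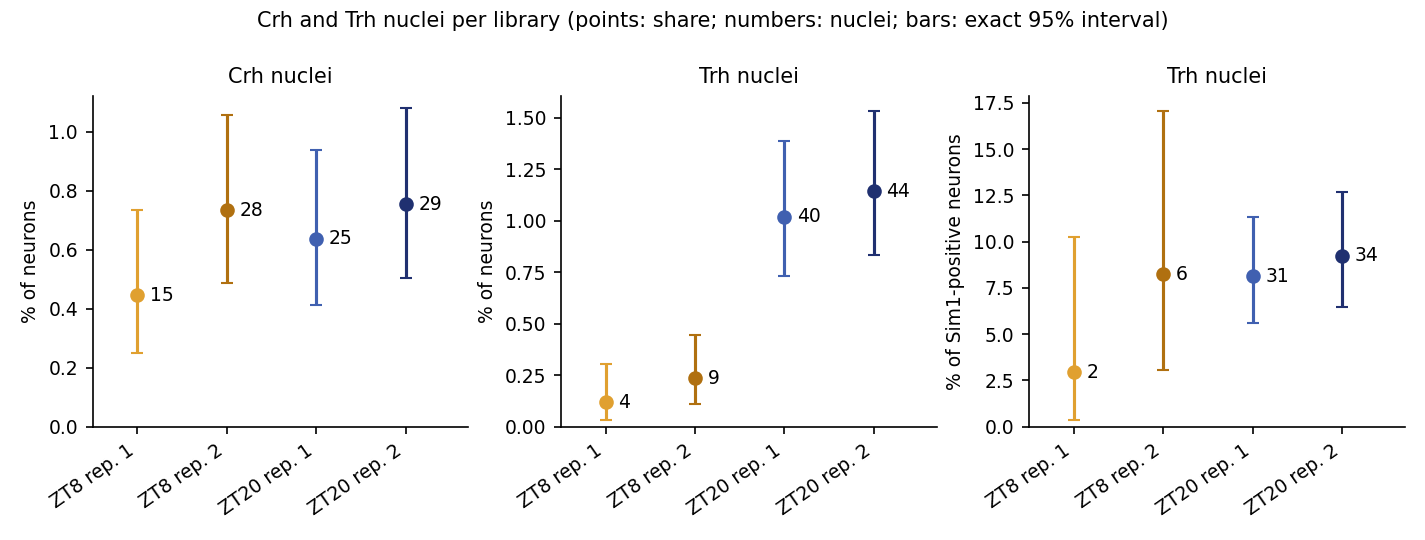
Shares of Crh nuclei (left) and Trh nuclei (middle) among neurons, and of Trh nuclei among Sim1-detected neurons (right), one point for each library with its exact 95% interval and the number of nuclei. The Trh share of neurons was 1.02% and 1.14% at ZT20 against 0.119% and 0.236% at ZT8, while the share within Sim1-detected neurons overlapped between the times.

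Most members sat close to the threshold. The median nucleus held 3 UMIs of its own peptide in both sets. Among Crh nuclei, 47 held exactly 2 UMIs and 21 held 5 or more, with a highest value of 25. Among Trh nuclei, 35 held exactly 2 and 36 held 5 or more, with a highest value of 22. Just outside the rule lay 290 neurons with 1 Crh UMI and 330 with 1 Trh UMI. The members held 352 of the 642 Crh UMIs of all neurons (54.8%) and 466 of the 796 Trh UMIs (58.5%).

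At equal depth, a UMI of either gene was about as frequent in neurons as in the oligodendrocytes. With every nucleus thinned to 2000 UMIs, at least 1 Crh UMI was found in 0.702% of neurons and 0.717% of the oligodendrocytes, and at least 1 Trh UMI in 0.715% and 0.538%. Without thinning the shares were 2.59% and 0.896% for Crh and 2.85% and 0.538% for Trh, at median depths of 12326.5 UMIs in neurons and 2821.5 in oligodendrocytes. Thinning removed more of the UMIs of the deeper neurons, so neither comparison can place a single UMI at the level of free RNA. No oligodendrocyte held 2 UMIs of either gene, which allows a share of up to 0.538%. Levels are given as CPM, the UMIs of a gene in the summed nuclei of a library scaled to a total of 1000000. Those of Crh in Crh nuclei were 281, 147, 236 and 194 CPM in ZT8 replicates 1 and 2 and ZT20 replicates 1 and 2, and those of Trh in Trh nuclei were 150, 237, 316 and 237 in the same order. These levels follow from the rule and are given as a description.

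Crh lies on chromosome 3 (19693401-19695396, minus strand, mm10) and Trh on chromosome 6 (92242061-92244650, minus strand). The 250 bases before the start of Trh are shown because this gene defines the nuclei and its promoter holds TGACCTCA, an element that is known from the human gene to bind CREB and the thyroid hormone receptor. Capitals mark matches to TGACCTCA and to TGACG, the core of the cAMP response element, on either strand (CGTCA on the other one). The sequence is from the RefSeq promoter table of GRCm38.p6, chr6:92244651-92244900, minus strand, written 5′ to 3′.
Trh: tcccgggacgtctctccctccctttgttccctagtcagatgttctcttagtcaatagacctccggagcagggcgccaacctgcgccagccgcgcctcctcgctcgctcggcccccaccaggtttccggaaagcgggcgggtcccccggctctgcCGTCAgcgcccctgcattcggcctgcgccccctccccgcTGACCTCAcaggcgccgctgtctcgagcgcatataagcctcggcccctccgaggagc
In the same 250-base window, TGACCTCA or its reverse complement was present in 1.94% of 32851 promoters and TGACG in 17.8%. A match describes the letters and not the use of a site. No Crh entry was matched in the table.

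In most Crh nuclei neither Sim1 nor Otp was detected, and in most Gad2 was detected. Sim1 was detected in 0 of 15 and 1 of 28 Crh nuclei at ZT8 and in 7 of 25 and 2 of 29 at ZT20, 10 of 97 in all (10.3%). Otp was detected in 3 of 97, and Crhbp, which encodes the binding protein of the peptide, and Scgn, a calcium sensor of PVN Crh neurons, in 1 each. Gad2 was detected in 10 of 15, 23 of 28, 20 of 25 and 19 of 29, in the order of libraries above, 72 of 97 in all (74.2%). Slc17a6 was detected in 12, 18, 15 and 24 nuclei of the same libraries, 69 of 97 in all (71.1%). Tcf7l2 was detected in 10, 19, 11 and 24, 64 of 97 in all. The data thus go against reading these 97 nuclei as PVN Crh neurons as a group, and they are called Crh nuclei by the rule alone.

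Deep nuclei pass a threshold of 1 UMI more easily, so the shares were also taken at equal depth. At 2000 UMIs in every nucleus, Gad2 was found in 27.8% of Crh nuclei (exact 95% interval 19.2 to 37.9%), 13.4% of Trh nuclei (7.33 to 21.8%), 16.1% of other neurons and 13.3% of oligodendrocytes. The interval of the Crh nuclei lay above that of the oligodendrocytes (10.6 to 16.4%), and that of the Trh nuclei overlapped it. Slc17a6 was found in 26.8% of Crh nuclei, 28.9% of Trh nuclei, 34.7% of other neurons and 23.1% of oligodendrocytes. The intervals of both peptide sets overlapped that of the oligodendrocytes. Oligodendrocytes were shallower before thinning, so their share need not be the background of neurons. This comparison therefore cannot tell expression of Slc17a6 from free RNA in either set. Tcf7l2 was found in 33.0% of Crh nuclei, 16.5% of Trh nuclei, 44.2% of other neurons and 43.0% of oligodendrocytes. Oligodendrocytes can also make Tcf7l2, so their share cannot tell whether it was expressed in the other sets. Sim1 was found in 41.2% of Trh nuclei, 3.09% of Crh nuclei, 1.96% of other neurons and 0.358% of oligodendrocytes.

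**Figure D2:**
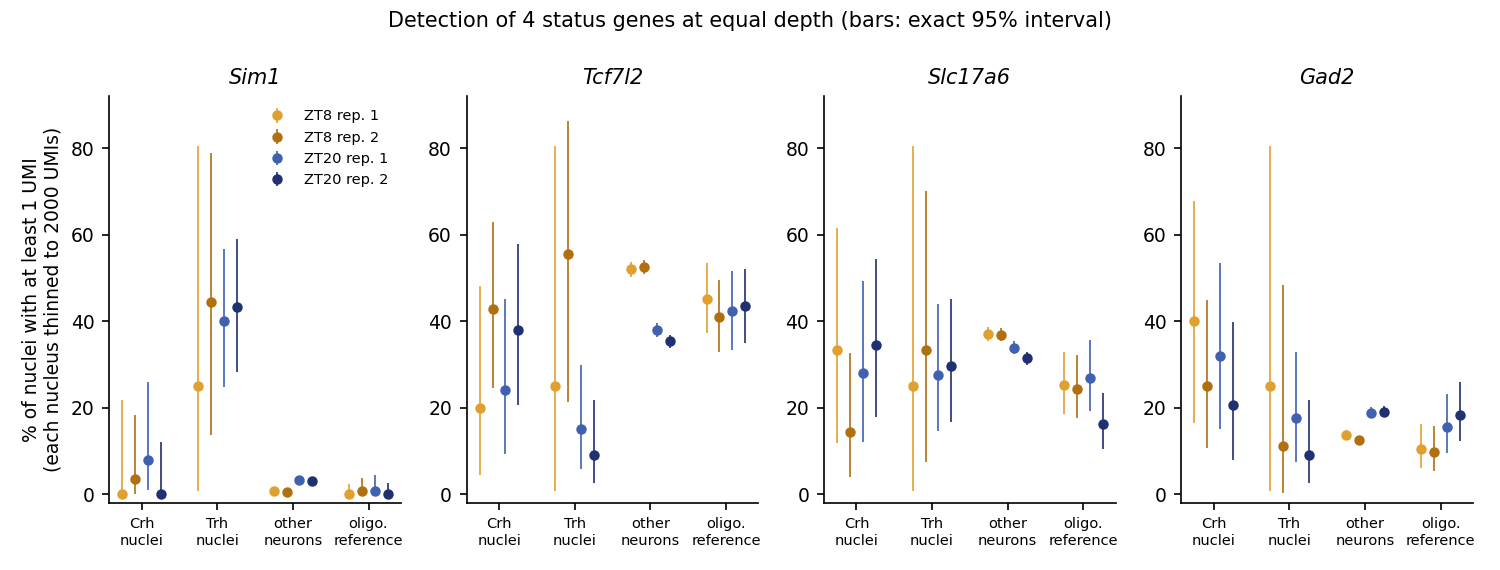
Percent of nuclei with at least 1 UMI of Sim1, Tcf7l2, Slc17a6 and Gad2 after thinning each nucleus to 2000 UMIs, by set and library, with exact 95% intervals. Sim1 was found in 25 to 44.4% of Trh nuclei and in at most 8.0% of any other set in a library, while the Slc17a6 intervals of both peptide sets overlap those of the oligodendrocyte reference.

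None of the status shares differed between the times beyond what 2 against 2 libraries can show. Over unthinned nuclei the exact permutation p was 0.333 for Sim1 in Crh nuclei (means 1.79% ± 2.53 at ZT8 and 17.4% ± 14.9 at ZT20, SD, n = 2), 1.0 for Tcf7l2, 1.0 for Slc17a6 and 0.667 for Gad2. In Trh nuclei it was 0.333 for Sim1 (58.3% ± 11.8 and 77.4% ± 0.161), 1.0 for Tcf7l2, 0.333 for Slc17a6 and 1.0 for Gad2. The Trh values at ZT8 rest on 4 and 9 nuclei.

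Many nuclei held UMIs of both transmitter genes. Of the 97 Crh nuclei, 49 held UMIs of both Slc17a6 and Gad2, 23 of Gad2 alone, 20 of Slc17a6 alone and 5 of neither. Of the 97 Trh nuclei, 39 held both, 41 Slc17a6 alone, 13 Gad2 alone and 4 neither. Sums over 3 genes of each kind gave a clearer split. GABA UMIs (those of Gad1, Gad2 and the vesicular transporter gene Slc32a1) outnumbered glutamate UMIs (Slc17a6, Slc17a7 and Slc17a8) in 11 of 15, 18 of 28, 13 of 25 and 14 of 29 Crh nuclei, 57.7% in all, against 30.5% of other neurons. In Trh nuclei they did so in 1 of 4, 2 of 9, 18 of 40 and 17 of 44, 39.2% in all. The oligodendrocytes had a GABA majority in 27.4% and a glutamate majority in 24.6%, from nuclei of far lower depth, so a majority of 1 or 2 UMIs is weak evidence for either kind.

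**Figure D3:**
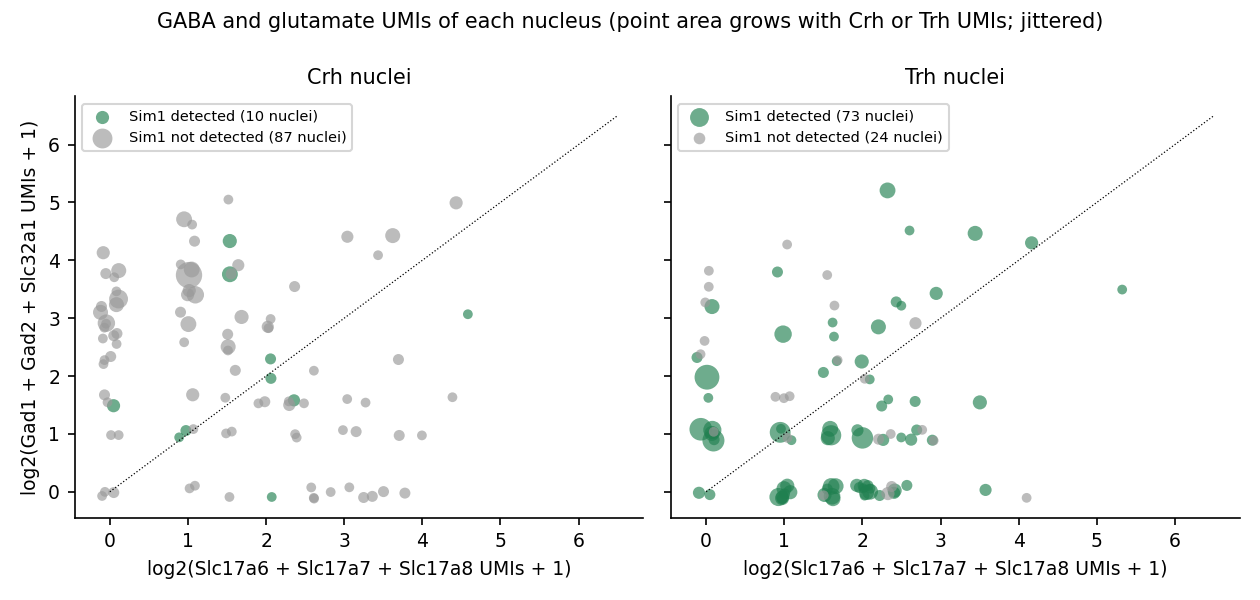
GABA against glutamate UMIs in each Crh nucleus (left) and Trh nucleus (right) on log2(UMIs + 1) axes, with point area growing with the UMIs of Crh or Trh and green for nuclei with Sim1. The largest Crh points lie above the diagonal and lack Sim1 in all but a few nuclei, and most Trh points are green and hold few UMIs of either kind.

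Nuclei with the most Crh were all GABA-leaning. GABA UMIs outnumbered glutamate UMIs in 19 of 47 nuclei with 2 Crh UMIs, in 16 of 29 with 3 or 4, and in 21 of 21 with 5 or more. Outside the rule, they did so in 93 of 288 neurons with 1 Crh UMI (32.3%), near the 30.5% of other neurons. Gad2 was detected in 48.6% with 1 Crh UMI and in 61.7%, 79.3% and 95.2% of the 3 member bins, while Sim1 was between 6.38% and 14.3% in all 4 bins. Median depth of the bins was 13698 UMIs outside the rule and 15280 to 15928 inside it.

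Nuclei with the most Trh nearly all carried Sim1. Sim1 was detected in 60 of 327 neurons with 1 Trh UMI (18.3%), in 15 of 35 with 2, in 23 of 26 with 3 or 4 and in 35 of 36 with 5 or more. After thinning the 4 shares were 8.26%, 14.3%, 69.2% and 47.2%. Gad2 was detected in 71.4% with 2 Trh UMIs and 38.9% with 5 or more, and none of those 36 nuclei kept a Gad2 UMI after thinning. Median depth was 12256 to 13860.5 UMIs in the 3 member bins. These bins cut the members by the value that chose them and are given as a description with no test.

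**Figure D4:**
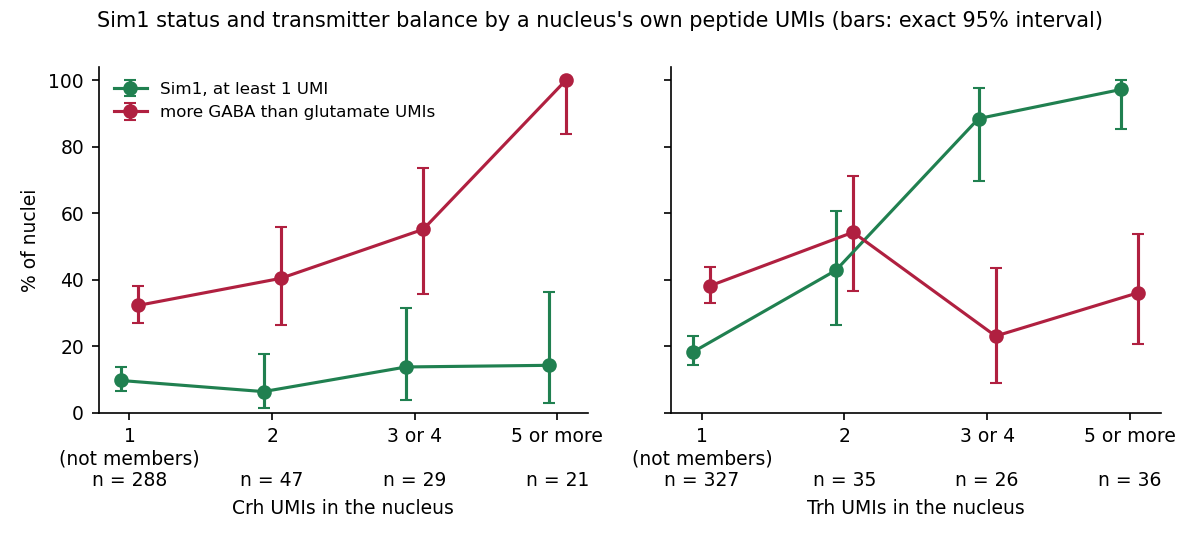
Percent of nuclei with Sim1 (green) and with more GABA than glutamate UMIs (red) by the nucleus's own Crh UMIs (left) or Trh UMIs (right), with exact 95% intervals; the first bin holds neurons outside the rule. The GABA share climbs to 21 of 21 with Crh, and the Sim1 share climbs to 35 of 36 with Trh.

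Marker genes differed among the Crh nuclei. Marks chosen after the data were seen gave these counts. Whether they reflect kinds of neuron, free RNA or doublets was not tested. Nts, which encodes neurotensin, was detected in 29 of the 97, of which 24 had a GABA majority. After thinning, Nts was found in 9 of the 97. Meis2, a homeobox factor of GABA neuron lineages, reached 10 UMIs in 18, of which 16 had a GABA majority and 12 also held Tac2, the neurokinin B gene. Tcf7l2 reached 10 UMIs in 24, of which 19 had a glutamate majority and 2 held 5 or more Crh UMIs. Sim1 was detected in 10, and only 2 of those also held Otp. The Nts and Meis2 groups shared 7 nuclei, and 31 nuclei met none of the marks for Nts, Meis2, Tcf7l2 and Sim1. All of these groups occurred in all 4 libraries except that with Sim1, which was absent from ZT8 replicate 1.

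Compared with the other neurons of the same libraries, Crh nuclei had more RNA of GABA genes, of some peptide and receptor genes and of immediate early genes, and less of genes that mark thalamic neurons. Counts were summed per library and set, and edgeR's quasi-likelihood test with library as a block was used with Benjamini-Hochberg adjustment over 18305 genes. At an adjusted p under 0.05, 412 genes differed (2.25% of those tested), 166 higher (0.907%) and 246 lower (1.34%) in Crh nuclei. The median log2 difference over all genes tested was -0.07. With relative log expression factors in place of TMM the split was 219 higher and 184 lower, so the balance of higher to lower genes depends on the scaling. DESeq2 called 157 genes (109 higher, 48 lower), 64 were called when each nucleus was thinned to 2000 UMIs, and 187 without ZT8 replicate 2. With 4 libraries and their block, the edgeR p-values lean on spread shared across genes. The fit does not model the nuclei in a sum, 15 to 29 for Crh nuclei and 3349 to 3857 for other neurons. For Junb the adjusted p was 1.12e-11 with edgeR and 0.000185 with DESeq2. The same limits hold for the interaction fit below.

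Among peptide genes, 2 of the 22 tested were higher and none was lower, and the list's median was -0.06. Nts stood at 57.8, 71.2, 118 and 37.9 CPM in Crh nuclei, against 6.95, 6.37, 14.0 and 14.0 in other neurons. Every library showed the difference, 2.78 ± 0.23 (SE) on the log2 scale, adjusted p = 2.11e-29, and no nucleus held more than 12.5% of the UMIs. Pdyn, the dynorphin precursor gene, was higher by 1.72 ± 0.40 with 33 UMIs in 18 nuclei, and by 1.13 with no call without ZT8 replicate 2. Of 14 genes for peptide processing and secretory granules, Cadps2, which primes dense-core vesicles, and Vgf, a granin-like precursor, were higher by 1.32 ± 0.11 and 0.71 ± 0.14, and the list's median was -0.02.

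Transmitter genes differed in both directions. Gad2 stood at 215, 154, 195 and 219 CPM in Crh nuclei and 74.9, 71.4, 112 and 117 in other neurons, with a log2 difference of 1.01 ± 0.12 (edgeR adjusted p = 4.34e-13). Gad1, the other GABA-synthesizing enzyme gene, was higher by 1.05 ± 0.15. Slc17a6 was lower in all 4 libraries, with 136, 174, 174 and 219 against 259, 255, 238 and 236, and a log2 difference of -0.52 ± 0.12 (adjusted p = 0.00141). Of 15 transmitter genes 3 were higher and 2 were lower, with a median of 0.22. Slc17a6 lost its call without ZT8 replicate 1 (-0.41, edgeR adjusted p = 0.0685) and without ZT8 replicate 2 (-0.50, adjusted p = 0.083). The third higher gene, Slc6a3 for the dopamine transporter, had 25 of its 26 UMIs in 1 nucleus and differed by 0.04 without ZT20 replicate 1, and Slc17a8 had 2 UMIs in all Crh nuclei.

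Of 20 receptor genes for hormones and peptides, 4 were higher and none lower, with a list median of 0.38. Prlr, the prolactin receptor gene, stood at 169, 132, 183 and 127 CPM in Crh nuclei and at 53.0, 53.5, 84.4 and 90.3 in other neurons, a log2 difference of 1.07 ± 0.13 (edgeR adjusted p = 7.33e-13). Hcrtr2, an orexin receptor gene, was higher by 1.08 ± 0.17 and Ghr, the growth hormone receptor gene, by 0.59 ± 0.12. Among 19 transcription factor genes that mark groups of GABA neurons, 4 were higher (Meis2, Pbx3, Zfhx3 and Lhx6) and Prox1 was lower (-1.41 ± 0.19). Meis2 showed 376, 177, 191 and 301 CPM against 51.8, 47.1, 99.4 and 94.0, a difference of 1.78 ± 0.16, and its UMIs came from 28 of 97 nuclei. Pbx3 was higher by 0.66 ± 0.12, and by 0.32 with no call without ZT8 replicate 2.

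Genes outside the lists were named by their rank of p. Higher in all 4 libraries were Gda, a guanine deaminase gene (log2 difference 1.54 ± 0.15), Cntnap5b, a neurexin-family adhesion gene (1.00 ± 0.10), the microRNA host gene Mir670hg (1.26 ± 0.14) and Col6a5, a collagen gene (4.02 ± 0.43). Col6a5 UMIs were found in 16 Crh nuclei, and 1 nucleus held 40% of them. Lower were Sox5, a transcription factor gene of projection neurons (-1.63 ± 0.15), Shisa6, for an AMPA receptor partner (-1.31 ± 0.15), the calcium channel gene Ryr3 (-0.93 ± 0.11), Ebf1 (-1.66 ± 0.21), and the ephrin receptor gene Epha7 (-1.05 ± 0.13).

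No PVN factor was called higher, and several thalamic markers were lower. Of 9 transcription factor genes of PVN neurons none was higher and Ebf3 was lower, with a median of 0.27. Sim1 stood at 0, 4.45, 45.8 and 20.1 CPM against 4.47, 4.10, 20.5 and 18.8, which did not pass the test (adjusted p = 0.745). Of 11 thalamic marker genes 5 were lower and none higher, with a median of -0.56. Tcf7l2 stood at 186, 321, 306 and 399 in Crh nuclei and 520, 536, 367 and 357 in other neurons, lower in 3 of 4 libraries and higher in ZT20 replicate 2 (-0.56 ± 0.14, edgeR adjusted p = 0.00977). The summed level of the 11 markers was 2102 to 3323 CPM in Crh nuclei and 3157 to 4639 in other neurons. The thyroid list of 11 genes had Thrb lower (-0.40 ± 0.12), the corticosteroid list of 11 had Zbtb16 higher (0.77 ± 0.22), and of 19 core clock genes Hlf (-0.81 ± 0.16) and Rora (-0.44 ± 0.12) were lower. Several of these calls were lost when 1 library was left out. Without ZT8 replicate 1 the log2 difference was -0.33 for Tcf7l2, -0.31 for Thrb and -0.19 for Rora. Without ZT8 replicate 2 it was -0.48 for Tcf7l2, -0.75 for Ebf3, -0.39 for Thrb, 0.75 for Zbtb16 and -0.37 for Rora. Thrb (-0.42) and Zbtb16 (0.55) were not called without ZT20 replicate 1 either, nor was Ebf3 (-0.97) without ZT20 replicate 2. No gene of the CRH system list passed, with 3 of 6 tested.

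Vascular markers were low in Crh nuclei, while other cell type markers went both ways. The summed level of 8 vascular marker genes was 8.90 to 14.5 CPM, against 24.6 to 72.1 in other neurons, with Acta2 and Pdgfrb at 0 in all Crh nuclei, and 4 of the 8 were called lower in the fit over all libraries. Acta2, Slco1a4 and Flt1 were not called without ZT8 replicate 2 or with DESeq2, and Flt1 was not called without ZT20 replicate 1 either. Acta2 was at 13.8 and 13.7 CPM in other neurons at ZT8 and at 0.501 and 0.465 at ZT20. The astrocyte sum was 48.3 to 339 against 264 to 322, higher than in other neurons in ZT20 replicate 2, and Gfap was at 0 in Crh nuclei. The sum of 7 tanycyte and ependymal markers was 8.26 and 10.4 in the ZT8 libraries and 57.9 and 40.2 in the ZT20 libraries. In other neurons it was 23.5, 20.7, 36.7 and 26.7 in that order, so it was the higher in Crh nuclei at ZT20 alone. Rax was at 0 in Crh nuclei. The oligodendrocyte sum was 252 to 1416 against 632 to 1024, higher than in other neurons in all libraries but ZT20 replicate 2, and 12791 to 14364 in the oligodendrocytes themselves. Their part in the gene differences was not tested.

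Immediate early genes, which neurons switch on within minutes of strong activity, were the list with the largest share of higher genes among the 21 lists compared. Of 15 tested, 9 were higher (Junb, Fosb, Egr1, Npas4, Homer1, Nr4a3, Arc, Egr3 and Nr4a1) and Nr4a2 was lower, with a list median of 1.31 against -0.07 over all genes. Junb stood at 95, 44.5, 21.7 and 29.0 CPM in Crh nuclei and at 8.39, 7.84, 12.3 and 12.9 in other neurons, a log2 difference of 2.05 ± 0.27 (edgeR adjusted p = 1.12e-11). Fosb stood at 53.7, 14.8, 7.24 and 26.8 against 1.95, 1.67, 3.08 and 2.46 (3.27 ± 0.44), with its 38 UMIs in 9 nuclei. Egr1 stood at 82.6, 51.9, 26.5 and 29.0 against 15, 13.8, 12.4 and 15.1 (1.61 ± 0.24). In each library both sets were apart, and the Crh values were highest in ZT8 replicate 1.

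Few nuclei carried this signal. Summed over 9 immediate early genes (Fos, Fosb, Junb, Egr1, Egr3, Nr4a1, Nr4a3, Arc and Npas4), at least 5 UMIs were held by 3 of 15, 6 of 28, 4 of 25 and 3 of 29 Crh nuclei, 16.5% in all, against 4.92% of other neurons (4.51 to 5.23% by library) and 4 of 97 Trh nuclei. Of the 16 Crh nuclei, 9 held 10 or more Meis2 UMIs, 12 had a GABA majority and 8 held at least 5 Crh UMIs. The highest value in 1 nucleus was 48 UMIs. At 2000 UMIs a nucleus, at least 1 such UMI was found in 33.3%, 28.6%, 20% and 10.3% of Crh nuclei and in 11.7%, 11.5%, 9.77% and 12.8% of other neurons, so the difference was not present in ZT20 replicate 2 on this measure. After thinning, the fitted Junb difference was -0.49, opposite in sign.

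The promoters of Junb and Fosb are shown because their RNAs had the lowest p of this list. Capitals mark TGACG on either strand. Both stretches are the 250 bases before the start in the RefSeq table of GRCm38.p6, written 5′ to 3′ on the gene's strand.
Junb: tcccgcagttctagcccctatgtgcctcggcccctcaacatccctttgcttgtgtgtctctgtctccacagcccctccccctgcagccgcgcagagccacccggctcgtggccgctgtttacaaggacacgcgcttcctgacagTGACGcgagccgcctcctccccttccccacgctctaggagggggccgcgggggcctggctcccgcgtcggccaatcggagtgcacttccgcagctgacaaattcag
Fosb: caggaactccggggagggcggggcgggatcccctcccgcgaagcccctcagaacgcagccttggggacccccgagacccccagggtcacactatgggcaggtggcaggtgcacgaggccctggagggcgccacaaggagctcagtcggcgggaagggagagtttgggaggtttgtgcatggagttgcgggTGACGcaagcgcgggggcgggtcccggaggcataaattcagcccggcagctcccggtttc
The Junb stretch is chr8:84978749-84978998, minus strand, and the Fosb stretch chr7:19310046-19310295, minus strand. Each holds 1 match, and 17.8% of promoters hold at least 1. The full element TGACGTCA was in neither and in 1.55% of promoters.

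Between ZT8 and ZT20, no gene of the Crh nuclei passed the test. Of 7550 genes tested with edgeR's quasi-likelihood test, 0 were called (0%), 593 had an unadjusted p under 0.05, and DESeq2 also called 0 (102 unadjusted). Without ZT20 replicate 1 the count was 99 and without ZT20 replicate 2 it was 42, each against a single ZT20 library assumed to vary like the ZT8 ones. The sums hold 15 to 29 nuclei each. Of 19 core clock genes 14 were tested and none was called.

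Rora, which activates clock genes, had the smallest p of the clock list. It stood at 829.9 and 1252 CPM at ZT8 and 1527 and 1477 at ZT20, from 2340 UMIs (log2 difference 0.50 ± 0.19, edgeR adjusted p = 0.51). Cry1, a repressor of the clock, stood at 16.5 and 11.9 CPM at ZT8 and 33.8 and 33.5 at ZT20, from 41 UMIs in all (log2 difference 1.32 ± 0.51, edgeR adjusted p = 0.526). Per2, another repressor, stood at 12.4 and 16.3 against 36.2 and 29.0 (1.07 ± 0.50, adjusted p = 0.626). Cry2 stood at 70.2 and 87.5 against 53.1 and 51.3 (-0.65 ± 0.30). The values of these genes did not overlap between the times, nor did those of Nr1d2, Tef, Rorb and Hlf. The differences were within what the test allows for library spread. With 2 against 2 libraries, such a separation cannot reach an exact permutation p under 0.333. Its share over all genes tested is not given here. Per1, at 37.2 and 16.3 against 26.5 and 29.0, and Arntl, at 37.2 and 51.9 against 60.3 and 51.3, overlapped. Npas2, a partner of Arntl, stood at 53.7 and 65.3 against 84.4 and 109 (0.65 ± 0.29, adjusted p = 0.618). Status genes did not pass either: log2 differences were 0.40 ± 0.23 for Tcf7l2, 0.29 ± 0.22 for Slc17a6 and 0.21 ± 0.21 for Gad2.

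Some genes differed between the times in Crh nuclei in another way than in other neurons. The interaction of set and time was called for 67 of 19276 genes (0.348%), 41 higher (0.213%) and 26 lower (0.135%), but for 0 without ZT8 replicate 1, for 11 without ZT8 replicate 2, for 35 without ZT20 replicate 2, for 14 with DESeq2 and for 0 after thinning. Fos, the best known immediate early gene, stood at 107 and 26.7 CPM at ZT8 and 2.41 and 6.70 at ZT20 in Crh nuclei, and at 7.61, 7.11, 10.9 and 11 in other neurons. The difference of the time changes was -4.05 ± 0.71 on the log2 scale (edgeR adjusted p = 4.07e-05), and its 48 UMIs came from 13 nuclei. Without ZT8 replicate 1 the Fos difference was -3.13 and not called. Junb moved the same way (-1.88 ± 0.49), with -2.37 to -1.47 and no call whichever library was left out.

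Thalamic marker genes made up 4 of the higher genes, of 11 tested, with a list median of 0.82. For Tcf7l2 the difference was 1.03 ± 0.21 and for Ntng1, a netrin-related adhesion gene, 0.82 ± 0.18. In other neurons Tcf7l2 stood at 520 and 536 CPM at ZT8 and 367 and 357 at ZT20, while in Crh nuclei it stood at 186 and 321 at ZT8 and 306 and 399 at ZT20. The other neurons also differed between the times in their share of Sim1-detected and GABA-leaning nuclei, given above, and its part in these differences was not tested. Of 11 corticosteroid genes, the receptor genes Nr3c1 (1.07 ± 0.26) and Nr3c2 (0.93 ± 0.23) were higher. Nr3c1 stood at 99.1 and 84.6 CPM at ZT8 and 121 and 185 at ZT20 in Crh nuclei and at 142, 149, 124 and 123 in other neurons. None of these was called without ZT8 replicate 1, where the differences were 0.72 for Tcf7l2, 0.52 for Ntng1, 1.14 for Nr3c1 and 0.78 for Nr3c2. Without ZT20 replicate 2 they were 0.79, 0.70, 0.71 and 0.88 in the same order, also with no call, and neither receptor gene was called without ZT8 replicate 2 (0.94 and 1.21).

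**Figure D5:**
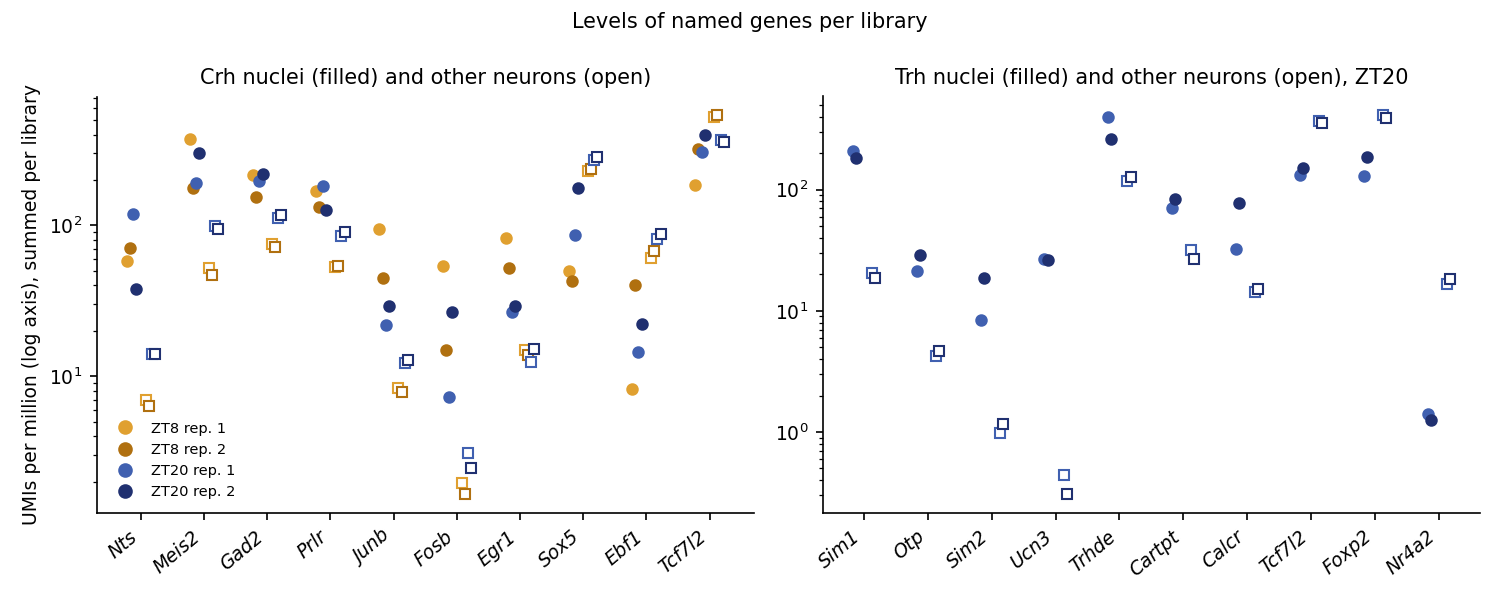
Levels of named genes in CPM, summed per library, on a log axis: Crh nuclei against other neurons in 4 libraries (left) and Trh nuclei against other neurons in the 2 ZT20 libraries (right), filled points for the peptide set and open squares for other neurons. Nts, Gad2 and the immediate early genes Junb, Fosb and Egr1 are higher in Crh nuclei in each library, and Sim1, Otp and Ucn3 are higher in Trh nuclei in both.

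Trh nuclei carried the marks of PVN neurons. Sim1 was detected in 2 of 4 and 6 of 9 at ZT8 and in 31 of 40 and 34 of 44 at ZT20, 73 of 97 in all (75.3%), against 807 of 14764 other neurons. Otp was detected in 24 of 97, all of them with Sim1. Slc17a6 was detected in 4, 8, 33 and 35 nuclei of the 4 libraries, 82.5% in all. Gad2 was detected in 3, 3, 22 and 24, 53.6% in all, and Tcf7l2 in 2, 7, 21 and 23, 54.6% in all. Of the 73 with Sim1, 43 had a glutamate majority and 24 a GABA majority, mostly from 1 or a few UMIs. The 24 without Sim1 held 2 to 4 Trh UMIs in all but 1 nucleus.

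Other peptide genes divided the Trh nuclei. Cartpt, for the CART peptide that marks a subset of hypothalamic Trh neurons, was detected in 36 of 97 (14.4% after thinning, against 3.28% of other neurons). Ghrh, the growth hormone-releasing hormone gene, was detected in 12, and Ucn3, the urocortin 3 gene, in 9, and all of these 21 carried Sim1. No nucleus held both Ucn3 and either Cartpt or Ghrh, and 8 of the 12 with Ghrh also held Cartpt. Agtr1a, an angiotensin receptor gene, was found in 22, of which 20 carried Sim1 and 15 held at least 5 Trh UMIs. Calcr, the calcitonin receptor gene, was found in 32, and Ebf1 reached 5 UMIs in 19, with 12 nuclei shared between these and 2 between Ebf1 and Agtr1a. These marks were chosen after the data were seen.

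Because both ZT8 libraries held fewer than 10 Trh nuclei, genes of Trh nuclei were not tested for time. They were compared with other neurons within the ZT20 libraries, a comparison added after the counts were known. With 2 libraries and their block, little information on spread is left for each gene. These p-values therefore lean on spread shared across genes, and so do those of the other ZT20 fits below. Of 18757 genes, 628 were called (3.35%) with edgeR's quasi-likelihood test, 247 higher (1.32%) and 381 lower (2.03%) in Trh nuclei. DESeq2 called 222, the thinned counts 37, and nuclei with no Tcf7l2 UMI 274. The median log2 difference over all genes was -0.06.

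Of 9 transcription factor genes of PVN neurons, 4 were higher and none lower, with a list median of 0.59. Sim1 stood at 207 and 182 CPM in Trh nuclei and at 20.5 and 18.8 in other neurons, a log2 difference of 3.24 ± 0.13 (edgeR adjusted p = 9.12e-19). Otp stood at 21.1 and 28.9 against 4.27 and 4.67 (2.42 ± 0.37, adjusted p = 4.39e-05). Sim2, the paralog of Sim1, stood at 8.46 and 18.8 against 0.983 and 1.16 (3.6 ± 0.66), and the fourth was Arnt2, which encodes the dimer partner of Sim1.

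A gene of the Trh axis itself was among those higher. Trhde, whose product degrades the peptide outside the cell, stood at 402 and 260 CPM against 118 and 126 (1.36 ± 0.13, edgeR adjusted p = 3.57e-07). The median over the 11 genes tested of that list was 0.15. Of 14 processing genes 4 were higher and 1 lower: Pcsk1, the prohormone convertase gene, by 1.07 ± 0.17, Scg2 by 0.63 ± 0.11, Cadps2 by 0.75 ± 0.12, and Pam, whose enzyme amidates the peptide, which also passed, while Chga was lower. Of 24 peptide genes, Cartpt (70.5 and 84.1 against 31.9 and 26.9, 1.35 ± 0.17) and Ghrh (2.67 ± 0.52) were higher, and Cck (-1 ± 0.20), Sst and Agrp (-0.73 ± 0.21) were lower. Agrp kept its call in no alternative but the fit with no filter on low counts. Cck lost its call with DESeq2, after thinning and in nuclei with no Tcf7l2 UMI, and Cartpt and Ghrh lost theirs after thinning.

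The largest difference among the named genes was in Ucn3, which encodes a CRH receptor ligand. It stood at 26.8 and 26.4 CPM in Trh nuclei and at 0.445 and 0.310 in other neurons (6.07 ± 0.61, edgeR adjusted p = 3.82e-08). Its 40 UMIs lay in 9 of 84 nuclei, and 1 nucleus held 45.0% of them. Calcr stood at 32.4 and 77.8 against 14.4 and 15.1 (1.84 ± 0.24), the only one of 21 receptor genes called. Further genes that ranked highest were Dach1 (1.66 ± 0.12), Lmo3, a LIM-domain transcription cofactor gene (1.75 ± 0.15), Pde1c, a phosphodiesterase gene (1.28 ± 0.12), and Vwc2l (1.04 ± 0.11). Zbtb16 (1.20 ± 0.20), Nr3c2, the mineralocorticoid receptor gene (0.53 ± 0.11), and Bdnf (1.02 ± 0.18) were higher too.

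Thalamic markers were lower in Trh nuclei, 6 of 11 tested and none higher, with a median of -1.05. Tcf7l2 stood at 131 and 152 CPM against 367 and 357 (-1.41 ± 0.12, edgeR adjusted p = 1.21e-09), and 1 nucleus held 33.6% of its UMIs. Ntng1 (-1.41 ± 0.12) and Synpo2 (-1.45 ± 0.15) were lower as well. Among genes outside the lists, Foxp2 (-1.40 ± 0.13), Syt7 (-1.35 ± 0.13), Vav3 (-1.12 ± 0.12) and Robo1 (-0.95 ± 0.10) were lower. Nr4a2 was at 1.41 and 1.26 against 16.6 and 18.4 (-3.78 ± 0.60), and Bdnf and Nr4a2 were the only genes of the 15 in the immediate early list to pass. Of 15 transmitter genes, Slc17a6 alone passed, at 149 and 181 against 238 and 236 (-0.58 ± 0.12). Gad2 did not pass the test (0.04 ± 0.13, adjusted p = 0.962). Of 19 clock genes Per1 (-1.42 ± 0.33) and Rora (-0.60 ± 0.09) were lower.

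Trh nuclei also differed from other neurons that carried Sim1 (31 and 34 Trh nuclei against 343 and 332 others at ZT20, also added after the data were seen). Of 14102 genes, 110 were called (0.780%), 65 higher (0.461%) and 45 lower (0.319%). DESeq2 called 21, the thinned counts 0, and a fit with no filter on low counts 271. Ucn3 (32.2 and 31.8 against 0.726 and 0.338 CPM, 5.79 ± 0.57, edgeR adjusted p = 5.84e-05), Lmo3 (1.56 ± 0.17), Vwc2l (1.11 ± 0.15), Trhde (1.02 ± 0.15), Ghrh (2.96 ± 0.53), Cadps2 (1.10 ± 0.15) and Scg2 (0.63 ± 0.14) were again higher. Agtr1a stood at 64.4 and 27.3 against 10.3 and 7.26 (2.33 ± 0.31), Asic4, for an acid-sensing channel subunit, at 40.7 and 33.4 against 6.10 and 5.07 (2.71 ± 0.34), and the axon guidance gene Sema3a was higher by 1.78 ± 0.22. Lower were Rgs6 (-1.12 ± 0.15), Arpp21 (-0.90 ± 0.14), Nrg1 (-0.93 ± 0.15), Gulp1 (-1.35 ± 0.22) and the peptide genes Pmch (-1.85 ± 0.33) and Sst (-1.29 ± 0.26). None of the 11 thalamic markers passed there, and Tcf7l2 differed by -0.50 ± 0.38 (adjusted p = 0.808). Of 13 factor genes of GABA neurons, Meis2 was higher and Lhx1 lower, and both lost their call with DESeq2. Gad2 did not pass (0.60, edgeR adjusted p = 0.104). A GABA majority was held by 13 and 9 of these Trh nuclei and by 60 and 66 of the other neurons with Sim1.

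Set side by side in the ZT20 libraries, Crh and Trh nuclei differed in 33 of 8667 genes (0.381%), 22 higher (0.254%) and 11 lower (0.127%) in Crh nuclei. The count was 13 with DESeq2 and 199 with no filter on low counts. Sim1 stood at 45.8 and 20.1 CPM in Crh nuclei and 207 and 182 in Trh nuclei (-2.55 ± 0.28, edgeR adjusted p = 0.00483). Ebf1 (-3.38 ± 0.27), Angpt1, the angiopoietin 1 gene (-2.78 ± 0.29), Dach1 (-1.65 ± 0.25), Arhgap24 (-1.39 ± 0.21) and Zfp536 (-1.15 ± 0.19) were lower in Crh nuclei too. Tac2 (5.07 ± 0.53) was higher, with 83 UMIs in 7 Crh nuclei and 41.0% of them in 1. Ntng1 (1.32 ± 0.16), Foxp2 (1.47 ± 0.18), Tcf7l2 (1.35 ± 0.17), the muscarinic receptor gene Chrm3 (1.36 ± 0.17), the kainate receptor gene Grik1 (1.22 ± 0.16), Meis2 (1.27 ± 0.18) and Zfhx3 (0.90 ± 0.15) were higher as well. Gad2, at 195 and 219 against 114 and 132, did not pass (0.79 ± 0.17, adjusted p = 0.111), nor did Slc17a6 (0.28 ± 0.17, adjusted p = 0.698).

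The genes whose detection followed Crh or Trh most closely across all 4 libraries differed between the sets, except for Phactr1, which was in both lists. The measure was the share of nuclei with a UMI at 2000 UMIs, peptide set minus other neurons, in the library where that difference was smallest. For Trh nuclei Sim1 led, with 25%, 44.4%, 40% and 43.2% against 0.806%, 0.582%, 3.27% and 3.02%, a smallest difference of 24.2 points. Vwc2l (23.4 points), Cep112 (21.2), Ncor1 (18.8) and Phactr1 (17.1) followed. The ZT8 shares of Trh nuclei rest on 4 and 9 nuclei, so this order is uncertain. For Crh nuclei the list was Phactr1 (18.2), Pde1a (17.9), Ndfip1 (16.2), Cntnap5b (16.0) and Dab1 (15.2), and neighbours in this order did not differ beyond the spread of 15 to 29 nuclei a library. These are widely expressed neuronal genes: Phactr1 was detected in 42.5 to 53.4% of other neurons.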

How the data were processed

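Nuclei from pooled, micropunched PVN tissue were profiled with 10x Genomics 3' chemistry in 2 ZT8 and 2 ZT20 libraries. Each deposited matrix gives unnormalized UMI counts of genes in barcodes; per the file headers these come from Cell Ranger 7.0.0, and the submitters' processing notes name Cell Ranger, STAR 2.6 and the build mm10. How introns were counted and barcodes called is not given in the sources used here. The library was the replicate. Counts were summed per library and set, and sums under 10 nuclei were not tested. They were compared with edgeR 4.0.16 in R 4.3.3 (filterByExpr, TMM, robust quasi-likelihood fit), with library as a block within libraries. The code was run on simulated sums drawn with a common dispersion. Those do not hold genes carried by few nuclei, so that run cannot vouch for such calls. DESeq2 1.42.0 was an alternative. Genes used by the rule stayed in the fits, the adjustment and the counts of genes tested, but were left out of the calls. Shares had exact (Clopper-Pearson) 95% intervals and a two-sided exact permutation test over libraries. Thinning drew 2000 UMIs from each nucleus at random. Reference oligodendrocytes carried at least 3 of 5 oligodendrocyte markers and at most 2 of the 7 neuron gate genes. The Scrublet caller of scanpy 1.11.5 marked 1, 0, 1 and 0 nuclei, which shows that its threshold had not worked, so doublets were treated only as an alternative that left out the highest scores (326 to 702 nuclei a library). Of the members, 11 Crh and 14 Trh nuclei fell there, and 4 and 7 held over 40000 UMIs. Genes were named by rule: up to 6 of smallest p in each direction with no overlap of libraries (4 for interactions), up to 3 per gene list, and the status and clock genes. Others are named to complete counts. Coordinates are from GENCODE M21 on mm10. The members and gene lists were chosen with earlier results of these data known. Fits of Trh nuclei by time or over all libraries, Crh against Trh nuclei over all libraries, and Gad2 against Slc17a6 nuclei within a set were not made, since a library held fewer than 10 nuclei. Some genes counted in the lists are not reported here by name.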

Additional observations from a re-analysis of the deposited data

Results flagged for a closer look

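The change from ZT8 to ZT20 in Crh nuclei differed from that in other neurons for these genes by the interaction test (edgeR, adjusted p under 0.05); each value is the difference of the 2 log2 changes, Crh nuclei minus other neurons. It was positive for Vav3 (1.33), Lef1 (1.71), Plekhg1 (1.37), Rora (0.96), Npas2 (1.13), Nr3c1 (1.07), Nr3c2 (0.93), Tcf7l2 (1.03) and Ntng1 (0.82). It was negative for Alcam (-1.31), Fos (-4.05), Sfta3-ps (-2.36), Erbb4 (-0.99), Cadps2 (-1.01), Junb (-1.88), Pbx3 (-0.997) and Meis2 (-0.95). None of the 17 kept an adjusted p under 0.05 without ZT8 replicate 1, which held 15 Crh nuclei and the highest Fos level, 107 CPM (UMIs scaled to a common total), or after thinning to 2000 UMIs; each kept its direction in both. The share of Sim1-detected other neurons was 1.97% and 1.75% at ZT8 and 8.89% and 8.79% at ZT20, and its part in these values was not tested.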

How the results depend on the processing

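The Trh share was higher at ZT20 under every alternative run (0.843 to 0.966 points leaving out 1 library), and Sim1 in Crh nuclei (5.11 to 26.2 points) and in Trh nuclei (10.7 to 27.4) and Slc17a6 in Trh nuclei (-19.0 to -7.87) kept their direction when 1 library was left out. The Crh share, 0.106 points higher at ZT20, was reversed without ZT8 replicate 1 (-0.0380 to 0.250 over left-out libraries), after thinning (-0.0486), without nuclei holding Tcf7l2 (-0.335) and among GABA-leaning neurons (-0.761), but not among glutamate-leaning neurons (0.318), both added after seeing the data. Leaving out 1 library gave -23.3 to 15.5 points for Tcf7l2, -12.1 to 10.6 for Slc17a6 and -9.38 to 6.09 for Gad2 in Crh nuclei, and -25.4 to 2.39 for Tcf7l2 and -20.2 to 21.4 for Gad2 in Trh nuclei. Slc17a6 in Crh nuclei was reversed with at least 3 peptide UMIs (4.80) and after thinning (7.43), and Gad2 in Trh nuclei likewise (-24.1 and -4.76).

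Genes called in Crh nuclei by time were 54 with no filter, 0 to 99 leaving out 1 library, and 76 with the replicate number as a block; equal numbers are not stated to pair libraries. Against other neurons there were 187 to 429 leaving out 1 library (187 without ZT8 replicate 2), 157 with DESeq2 and 64 thinned; the interaction gave 0 to 85, 14 and 0. For Trh nuclei against other neurons there were 222 (DESeq2), 37 (thinned) and 274 (no Tcf7l2 UMI), and within Sim1-detected neurons 21 (DESeq2), 271 (no filter), 179 (at least 3 UMIs), 210 (highest doublet scores removed) and 0 (thinned). Crh against Trh nuclei gave 13 (DESeq2), 51 (relative log expression), 199 (no filter), 111 (at least 3 UMIs) and 97 (doublet scores). No library could be left out of the ZT20 fits, and fits of Crh nuclei with at least 3 UMIs or no Tcf7l2 UMI were not made for lack of nuclei.

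Differences that changed sign were Gad2 by time in Crh nuclei (-0.20 thinned, -0.0476 to 0.398 leaving out 1 library), Junb (-0.49 thinned) and Sim1 (-0.0399 thinned, -0.111 to 0.672 leaving out 1 library) in Crh nuclei against other neurons, the Sim1 interaction (-1.43 thinned), and Gad2 in Trh nuclei against other neurons (-0.32 with at least 3 UMIs, -0.69 thinned, -0.52 with no Tcf7l2 UMI) and within Sim1-detected neurons (-0.64 thinned). Of these, Junb alone had passed the test. The causes were not tested. Thinning leaves 2000 UMIs a nucleus of a median of 12326.5, so fewer genes can be called.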
